A study of Mus musculus with 4 samples.

Results

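The 37 genes described here encode the core machinery of autophagy in the mouse, from the kinase complex that starts it to the lysosomal membrane on which it ends. They were listed by name, among the 21829 protein-coding genes of the GENCODE vM21 annotation, and all 37 were found there. For each gene, peaks of accessible chromatin in the gene or within 5 kb of it were collected from 4 ATAC-seq peak lists of mouse aorta. Control mice (*Col3a1*+/+) were compared with *Col3a1* G938D/+ mice, a model of vascular Ehlers-Danlos syndrome (VEDS) that carries a glycine substitution in 1 allele of type III collagen. All mice were untreated and 60 days old (P60), and each library pooled aortic nuclei of 2 mice. For each genotype there was 1 library of females and 1 of males, 4 in all, so the 2 libraries of a genotype also differ in sex. An exact two-sided permutation test of 2 libraries against 2 cannot go below p = 0.333, and no test between genotypes was made.

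In autophagy, part of the cytoplasm is enclosed in a double membrane, the autophagosome, and delivered to the lysosome for degradation and reuse. A kinase complex around ULK1 starts the process, a lipid kinase complex around PIK3C3 marks the membrane, and a conjugation system related to that of ubiquitin helps it grow. TFEB and TFE3 are transcription factors that drive many lysosomal and autophagy genes through an E-box motif named the CLEAR element. In vascular smooth muscle cells (VSMC), autophagy is known to take part in the switch between contractile and synthetic states.

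The libraries differed strongly in the number of peaks. The control female and VEDS male lists, called the long lists below, held 21176 and 41444 peaks, and the control male and VEDS female lists, the short lists, held 1236 and 504. The median number of fragments at a summit was 14 and 22 in the long lists and 7 and 6 in the short lists. Each genotype has 1 long and 1 short list, so a gene without a peak in a short list cannot be called closed, and list length cannot be told apart from sex within a genotype. As a check of the tissue, all 6 VSMC markers examined (*Myh11*, *Acta2*, *Tagln*, *Cnn1*, *Lmod1* and *Myocd*) had a promoter peak in both long lists. None of 5 immune or 4 adipocyte markers had one there, 0 and 2 of 5 endothelial markers did in the control female and VEDS male lists, and 2 of 5 fibroblast markers in each. Of striated muscle markers 1 and 2 of 4 had one, and of neuron markers 0 and 1 of 3. Of all protein-coding genes, 44.0% had a promoter peak in the control female list and 54.5% in the VEDS male list. None of the marker genes had one in a short list, where 1.29% (control male) and 1.31% (VEDS female) of all genes did. The counts per cell type are small. Accessible chromatin at a promoter is not a measure of the RNA made from it.

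The regulatory sequences that the promoter results turn on are shown first. Each is read 5′ to 3′ on the strand of the gene from the GRCm38 (mm10) reference, with the motif in capitals. Positions are counted from the transcription start site (TSS) of the principal transcript, with bases before it negative. The E-box CACGTG reads the same on both strands, as does the cAMP response element (CRE) TGACGTCA. The CLEAR core, TCACGTGA, is an E-box with 1 fixed base on either side.

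The first set is shown because these 3 promoters hold an E-box, the element that TFEB and TFE3 bind. *Lamp1* (chr8:13159085-13159160, plus strand, bases -76 to -1) has 4 of them. *Atg3* (chr16:45158720-45158779, plus strand, bases -65 to -6) has 2, of which the second is the CLEAR core. *Atg5* (chr10:44268310-44268357, plus strand, bases -48 to -1) has an E-box followed by a CRE.
Lamp1: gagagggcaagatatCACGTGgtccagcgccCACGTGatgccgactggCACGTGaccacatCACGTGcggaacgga
Atg3: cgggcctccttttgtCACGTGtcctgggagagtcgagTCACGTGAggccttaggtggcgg
Atg5: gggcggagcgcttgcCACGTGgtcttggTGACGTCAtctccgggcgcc

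The second set holds 2 other promoters with a CRE, the element of CREB-family factors, in capitals. *Becn1* (chr11:101302275-101302304, minus strand) and *Atg16l2* (chr7:101302088-101302117, minus strand) are shown over 30 bases, from base -18 to 11 for *Becn1*, across its start, and from base -29 to the start base for *Atg16l2*.
Becn1: agctcccgtcgTGACGTCActtctggtcct
Atg16l2: tgctgccgcccTGACGTCAtggagtccccg

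The third set holds the AP-1 site, TGAGTCA or TGACTCA on the other strand, bound by FOS and JUN dimers, and the MEF2 site of a promoter accessible in 3 libraries. *Rb1cc1* (chr1:6214593-6214629, plus strand) has the one AP-1 promoter match. *Uvrag* (chr7:99085363-99085399, minus strand) has an AP-1 match inside an intronic peak of both long lists. *Atg13* (chr2:91710690-91710729, minus strand) has the MEF2 match, and MEF2 factors are known activators of VSMC genes.
Rb1cc1: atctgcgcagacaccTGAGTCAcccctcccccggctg
Uvrag intron: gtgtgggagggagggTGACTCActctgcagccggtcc
Atg13: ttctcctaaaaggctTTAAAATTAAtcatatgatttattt

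Almost all of the autophagy promoters were accessible in both libraries with long lists, and almost none was listed in the others. A promoter peak, here a peak within 1 kb of any TSS of the gene's protein-coding transcripts, was present at 34 of the 37 genes in the control female list. That is 91.9% (95% Wilson interval 78.7 to 97.2), beside 44.0% of all protein-coding genes. In the VEDS male list all 37 genes had one (interval 90.6 to 100), beside 54.5% of all genes. In the control male list 1 of 37 had one, *Atg13*, beside 1.29% of all genes. In the VEDS female list 0 of 37 had one (interval 0 to 9.41), beside 1.31% of all genes. The shares at the genes listed here were above the background in the long lists, and in the short lists too few peaks were called to set them apart from it. The intervals cover counting error only and treat the genes as independent draws. The 37 genes were chosen by name and each list is 1 library, so the intervals measure no spread between mice or libraries.

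**Figure D1:**
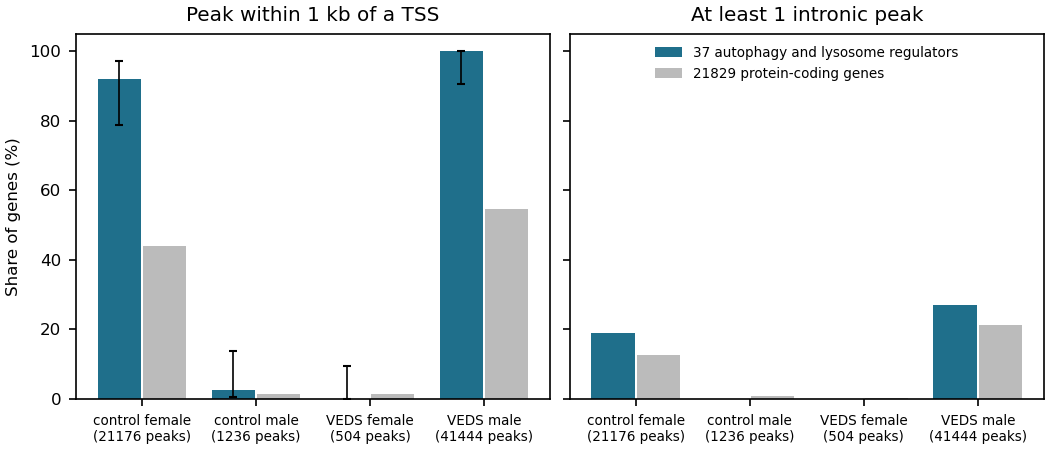
Share of genes in percent with a peak within 1 kb of a TSS (left) and with at least 1 intronic peak (right) in each library, for the 37 regulators (blue) and all 21829 protein-coding genes (grey). Error bars are 95% Wilson intervals. In the long lists, 91.9% and 100% of the regulators had a promoter peak, and the intronic shares lie closer to the background.

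Counted over the locus with 5 kb on either side, 35 of the genes had any peak in the control female list (54.9% of all genes) and 37 in the VEDS male list (65.8%). In the control male list 1 did, beside 2.79% of all genes, and in the VEDS female list 0 did, beside 2%. Both long lists had a promoter peak at 34 genes, or 91.9%, beside 43.8% of all genes. The remaining 3, *Becn1*, *Ambra1* and *Lamp2*, had one in the VEDS male list only. No gene lacked a promoter peak in both long lists, whereas 45.3% of all genes did.

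Across all genes, promoter peaks were at a larger share of promoters rich in CpG than of those poor in it. Among the autophagy genes, nearly all promoters of both kinds had one. A ratio of observed to expected CpG above 0.6 was found at 29 of the 37 promoters, or 78.4%, compared with 46.7% of all promoters and 72.9% of those with a peak in a long list. Among all CpG-rich promoters, 72.7% had a peak in the control female list and 85.2% in the VEDS male list, and 27 and 29 of the 29 CpG-rich autophagy promoters did. Among all CpG-poor promoters the shares were 19% and 27.6%, while 7 and 8 of the 8 autophagy genes with a CpG-poor promoter had a peak. The ratio was taken at the principal TSS, but the peak could lie at any TSS of the gene. These 8 genes include *Pik3c3* (CpG ratio 0.439), *Lamp2* (0.55), *Atg14* (0.497) and *Tfeb* (0.28). At *Atg14* and *Tfeb* the peaks lay at other starts, and the CpG-poor window itself held no peak in either long list. The part of CpG content in the shares was not tested.

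The peaks were ranked within each library, since heights are not comparable between lists. The percentile of a promoter peak is its position by −log10 q among the promoter peaks of protein-coding genes in the same list, with 100 the highest. The median over the autophagy genes was 55 in the control female list, equal to the median of all genes with a promoter peak (55). In the VEDS male list it was 65.6, beside 60.3 for all genes. The range was wide, from 0.33 to 95.6 and from 16.7 to 98.5. The summits held 5 to 46 fragments (median 18.5) in the control female list and 16 to 116 (median 45) in the VEDS male list. Across the 34 genes with a peak in both lists, the 2 percentiles had a Spearman correlation of 0.692, and of 0.846 across all 9571 such genes. Genes are not independent replicates, and the libraries share the reference sequence and the peak caller.

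**Figure D2:**
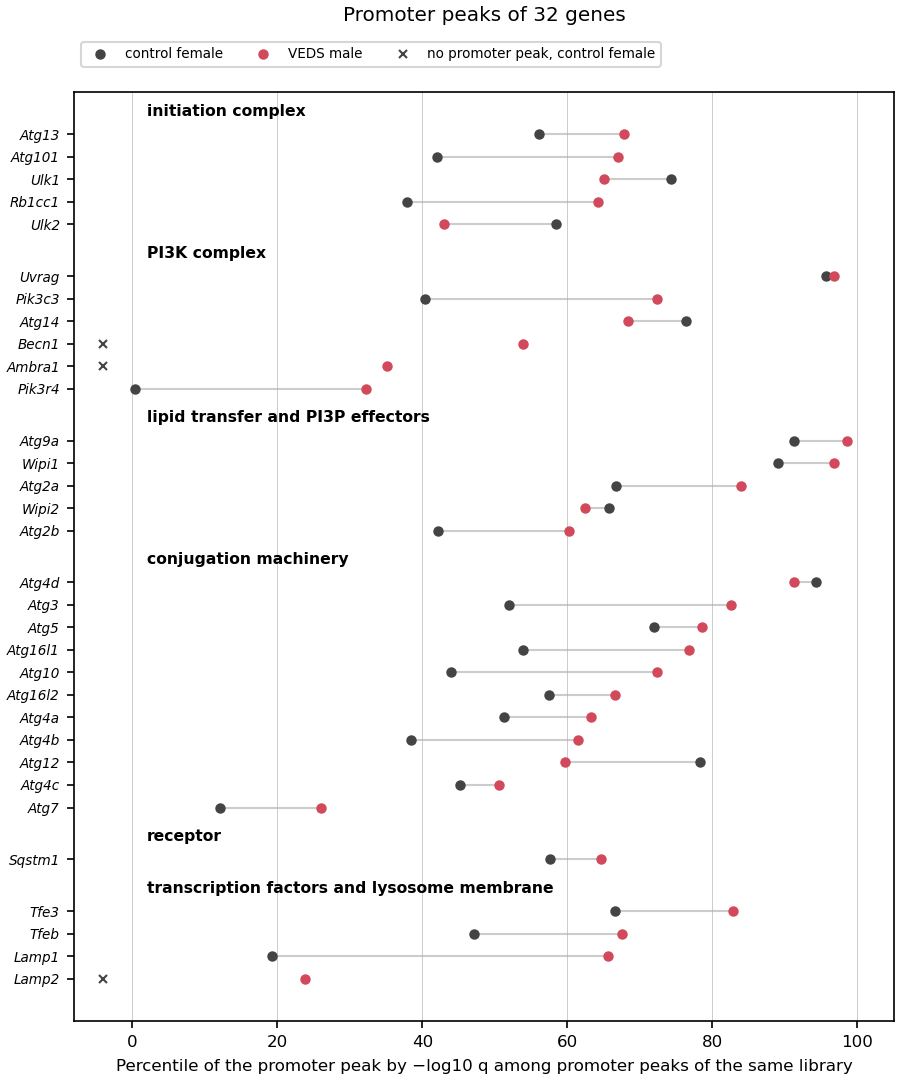
Percentile by −log10 q of the promoter peak of each of 32 genes among the promoter peaks of the same library (x axis), by functional group, in the control female (black) and VEDS male (red) lists. *Uvrag*, *Atg9a*, *Wipi1* and *Atg4d* are at 89 or above in both, *Atg7* is at 26 or below, and crosses mark the 3 genes with no control female promoter peak.

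The initiation complex had promoter peaks at all 5 genes in both long lists, with median percentiles of 56.1 and 65. It holds the kinases *Ulk1* and *Ulk2*, the scaffolds *Atg13* and *Rb1cc1* (FIP200), and the stabilizing subunit *Atg101*. *Atg13* was the only autophagy gene with a promoter peak in 3 lists, the VEDS female list being the exception. Its control male peak was weak, with 5 fragments at the summit, a fold enrichment of 4.04 over the local background and a percentile of 4.05 in that list. In the control female list its peak held 18 fragments (fold enrichment 9.55), and in the VEDS male list 45 (12.5). *Atg13* shares its promoter with *Harbi1*, which starts 276 bases away in the opposite direction, so the peak cannot be assigned to either gene. The MEF2 match, which begins at base -138, lay inside the peak of all 3 lists. The summits lay at bases -306 (control female), -282 (VEDS male) and -39 (control male). The 300 bases around the VEDS male summit held no full MEF2 match. Among all promoters, 2.75% hold a MEF2 match, and of those with a peak in a long list 1.68% do. *Ulk1* was at percentile 74.3 in the control female list and 65 in the VEDS male list, and *Ulk2* at 58.4 and 43. *Rb1cc1* was at 37.9 and 64.2, and the AP-1 site shown above, which begins at base -37, lay inside both peaks.

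The lipid kinase complex showed both extremes of the ranking. *Uvrag*, which binds Beclin 1 and acts in autophagosome maturation and endosomal traffic, had the highest percentile in the control female list (95.6, 46 fragments) and one of the highest in the VEDS male list (96.8, 103 fragments). *Pik3r4*, the regulatory subunit VPS15, had the lowest in the control female list (0.33, 5 fragments), and in the VEDS male list it stood at 32.2 with 20 fragments. *Pik3c3*, the catalytic subunit VPS34, was at 40.3 and 72.3. The peaks of *Atg14*, which directs the complex to the site of autophagosome formation, lay 2194 and 2140 bases inside the gene, at a TSS other than the principal one, with percentiles of 76.3 and 68.4.

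*Becn1* and *Ambra1*, the Beclin 1 gene and the gene of a regulator of Beclin 1, were the 2 genes of this complex with no control female promoter peak. At *Becn1*, the VEDS male peak held 34 fragments (fold enrichment 10.9) and stood at percentile 53.9. Of the 1353 genes ranked between 50 and 60 in the VEDS male list, 90.6% also had a control female promoter peak, so *Becn1* belonged to the smaller part of genes of its rank. The nearest control female peak lay 13498 bases from its start, and the locus had none. The *Becn1* peak covers the CRE shown above, which begins at base -7 and ends on the start base, and a FOXO match (GTAAACA) at base -52. *Ambra1* was at percentile 35.1 with 24 fragments, in a range of rank (30 to 40) where 66% of genes had a control female promoter peak. *Ambra1* did have 2 intronic peaks in the control female list, the nearer 9029 bases from a start.

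Of the lipid transfer proteins and PI3P effectors, all 5 had promoter peaks in both long lists, and their median percentiles, 66.7 and 84, were the highest of the 6 groups. *Atg9a*, the lipid scramblase of the vesicles that seed the autophagosome, was at 91.2 with 35 fragments in the control female list and at 98.5 with 94 fragments in the VEDS male list. In both lists the *Atg9a* peak also covers a start of *Ankzf1*, so it cannot be assigned to either gene. *Wipi1*, a reader of the PI3P made by PIK3C3, was at 89 with 43 fragments and at 96.8 with 116 fragments. Ranked by fold enrichment instead, *Wipi1* stood lower, at 63.6 and 69.3, whereas *Atg9a* stood at 90 and 98.5. *Wipi2*, the related reader that recruits ATG16L1, was at 65.7 and 62.4. The lipid transporters *Atg2a* and *Atg2b* were at 66.7 and 84, and at 42.1 and 60.2, and the *Atg2b* peak lies at the start of *Gskip* as well. The *Wipi1* promoter holds 8 matches to the GC box GGGCGG, of which 7 lay in the control female peak and all 8 in the VEDS male peak. Among all promoters, 45.3% hold at least 1 GC box, as do 22 of the 37 here (59.5%) and 64.9% of those with a peak in a long list.

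The conjugation machinery had promoter peaks at all 11 genes in both long lists, with median percentiles of 51.9 and 66.6. *Atg4d*, a cysteine protease of this system, was the highest in this group, at 94.3 (35 fragments) and 91.2 (75 fragments). Its relatives *Atg4a*, *Atg4b* and *Atg4c* were at 51.3, 38.4 and 45.2 in the control female list and at 63.3, 61.4 and 50.6 in the VEDS male list. *Atg7*, the E1-like enzyme of both conjugation systems, was the lowest of the group in both lists, at 12.1 with 8 fragments and at 26 with 17 fragments. *Atg3*, an E2-like enzyme, was at 51.9 in the control female list and at 82.6 in the VEDS male list. *Atg12*, the ubiquitin-like partner of *Atg5*, stood in the other order, at 78.3 and 59.7. *Atg5* was at 71.9 and 78.5, *Atg10*, the E2-like enzyme for ATG12, at 44 and 72.4, *Atg16l1* at 53.8 and 76.8 and *Atg16l2* at 57.4 and 66.6. Several of these promoters are shared with a gene that starts nearby on the opposite strand, such as *Slc35a5* at *Atg3* (79 bases), *Thap4* at *Atg4b* (41 bases) and *Ap3s1* at *Atg12* (297 bases).

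*Sqstm1*, the cargo receptor p62, had promoter peaks in both long lists, at percentiles 57.6 (24 fragments) and 64.6 (57 fragments). Its highest peak lay 618 and 625 bases inside the gene, and in the VEDS male list a second, lower peak (percentile 17.6) covered the principal TSS. That second peak also covers a start of *Mgat4b*, so it cannot be assigned to either gene.

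The transcription factors and lysosomal membrane proteins had promoter peaks at 3 of 4 genes in the control female list and at all 4 in the VEDS male list. *Tfe3* was at 66.6 with 23 fragments and at 82.8 with 61 fragments. *Tfeb* has 11 TSSs, and none of its 4 promoter peaks in the control female list or its 6 in the VEDS male list lay at the principal one. Its highest peak had its summit at base -22582 from the principal start in the control female list and at base -22648 in the VEDS male list, with percentiles of 47.1 and 67.5. *Lamp1*, a major glycoprotein of the lysosomal membrane, was at 19.2 (11 fragments) and at 65.6 (44 fragments). *Lamp2*, its partner and the receptor of chaperone-mediated autophagy, had no control female peak in its locus. In the VEDS male list it was at 23.8 with 16 fragments, and of the genes ranked from 20 to 30 there, 44.5% had a control female promoter peak.

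Across the promoter windows, from 250 bases before to 50 bases after the principal TSS, the CRE was at a higher share than in all promoters and the E-box was near the share of promoters with a peak. A CRE was present at 4 of 37 promoters (10.8%), beside 2.49% of all promoters and 3.54% of the 11948 with a peak in a long list. An E-box was present at 4 of 37 (10.8%), beside 7.74% and 10.1%, and the CLEAR core at 1 (2.7%), beside 1.15% and 1.82%. The AP-1 site was present at 1 (2.7%), beside 4.43% and 3.19%. These are descriptions of sequence, with counts too small to rank the motifs, and a match is not a bound site. In the RefSeq promoter windows, which hold 31 of the 37 genes, the CRE matches numbered 2 (*Atg5* and *Atg16l2*), the E-box matches 5 (*Atg3*, *Atg5*, *Atg7*, *Atg14* and *Lamp1*) and the AP-1 matches 0.

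The 4 E-boxes of *Lamp1* are a rare arrangement, since only 6 of all 21829 promoter windows (0.0275%) hold 4 or more. All 4 lay inside the VEDS male peak and outside the control female peak, which began 18 bases after the start. *Atg3* and *Atg5* had their E-boxes inside both peaks. The CRE of *Atg5* and *Atg16l2* lay inside both peaks, and that of *Becn1* inside the VEDS male peak. In *Atg5* the E-box and the CRE lie side by side within 50 bases of the start.

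**Figure D3:**
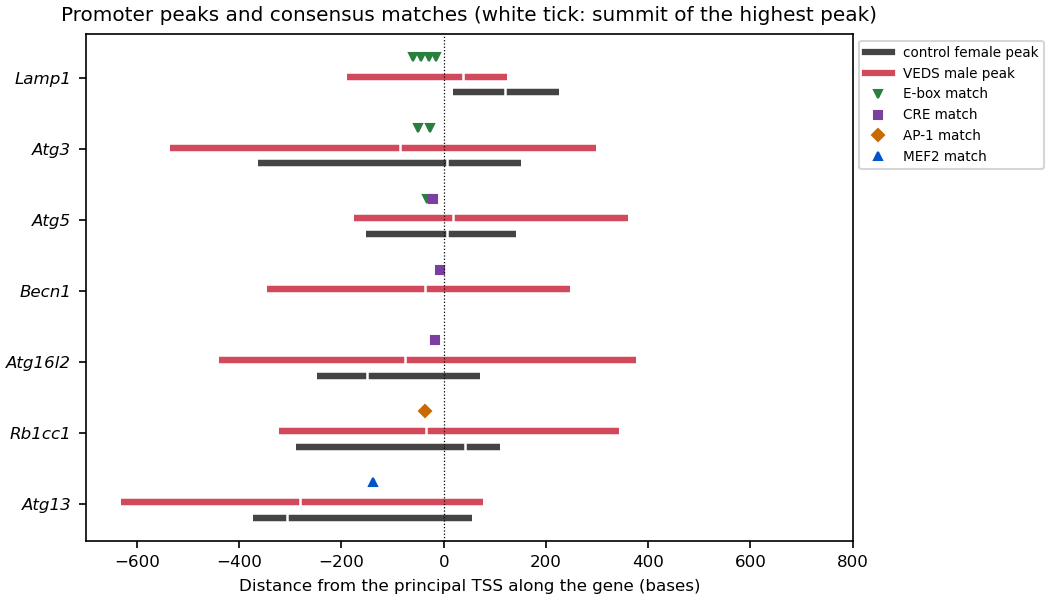
Promoter peaks of the control female (black) and VEDS male (red) lists and consensus matches (symbols) for 7 genes, against distance in bases from the principal TSS along the gene. White ticks mark the summit of the highest peak; the 4 E-box matches of *Lamp1* fall outside the control female peak, which begins 18 bases after the start.

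Of the other promoter elements, the NRF1 and YY1 sites were at higher shares than in promoters with a peak, though on 4 and 3 genes. The ETS site was near that share, and the NF-Y site was at a lower one. None of these differences was tested. The ETS site (CCGGAAG) was found at 6 promoters (16.2%, beside 11.2% of all and 18.1% of those with a peak), including *Atg101*, *Atg16l1* and *Rb1cc1*. The NRF1 site (GCATGCGC) was found at 4 (10.8%, beside 3.72% and 5.35%), namely *Atg7*, *Atg10*, *Atg14* and *Wipi2*. The YY1 site (AAGATGGC) was found at 3 (8.11%, beside 3.05% and 4.69%), namely *Atg4b*, *Atg4d* and *Pik3c3*. The NF-Y site (CCAAT) was found at 11 (29.7%, beside 38.5% and 38.6%), including *Uvrag* and *Atg2a*, which hold 3 each.

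The wider pathway held promoter peaks in shares like those of its core, and E-boxes in a larger share. Of 116 further genes of the pathway, 107 had a promoter peak in the control female list (92.2%), 3 in each short list (2.59%) and 111 in the VEDS male list (95.7%), close to the counts for the core genes. Of all protein-coding genes, 44.0% and 54.5% had one in these long lists, and 1.29% (control male) and 1.31% (VEDS female) in the short lists. An E-box was present at 32 of the 116 (27.6%), beside 7.74% of all promoters and 10.1% of those with a peak in a long list. The CLEAR core was at 13 (11.2%, beside 1.15% and 1.82%) and a CRE at 3 (2.59%, beside 2.49% and 3.54%). The E-box share was 37.5% of 16 subunits of the V-ATPase, the proton pump that acidifies the lysosome, 37.5% of 16 genes of fusion with the lysosome, and 35.3% of 34 lysosomal enzymes and membrane proteins. It was 19.2% of 26 genes of mTORC1 and nutrient sensing and 7.69% of 13 selective receptors. Of the 34 lysosomal genes, *Cd68* and *Ctss* lacked a promoter peak in both long lists, as did *Rragd* among the nutrient sensing genes and *Tfec* in the MiT/TFE family, to which *Tfeb* and *Tfe3* belong. The difference between lists of genes was not tested.

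**Figure D4:**
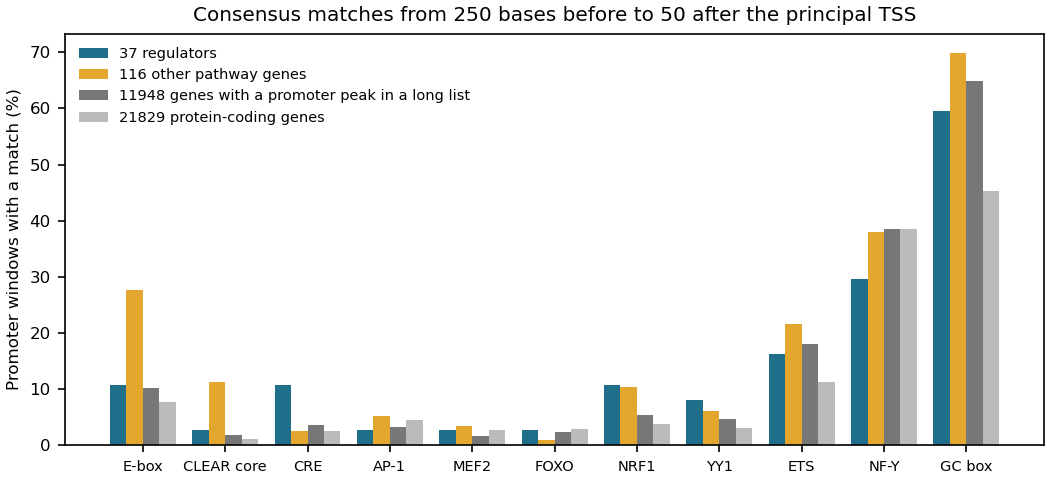
Share of promoter windows in percent with at least 1 match to each consensus sequence, for the 37 regulators (blue), 116 further pathway genes (yellow), 11948 genes with a promoter peak in a long list (dark grey) and all 21829 protein-coding genes (light grey). The E-box is at 10.8% of the regulators and 27.6% of the further pathway genes, and the CRE at 10.8% and 2.59%.

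Intronic peaks were close to the background. A peak with a base in an intron, none in an exon and none within 1 kb of a TSS of the gene was found at 7 of 37 genes in the control female list (18.9%), beside 12.6% of all genes, with 12 peaks in all. In the control male and VEDS female lists 0 of 37 had one, beside 0.990% and 0.316%. In the VEDS male list 10 of 37 had one (27%), beside 21.3%, with 35 peaks. The autophagy genes are longer, with a median of 36.6 kb beside 17.4 kb for all genes. Per 100 kb of gene they held 0.535 intronic peaks in the control female list and 1.56 in the VEDS male list, beside 0.546 and 1.32 for all genes.

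Most of these peaks lay in 4 long genes. *Atg7*, 217518 bases long, had 4 intronic peaks in the control female list and 10 in the VEDS male list, against its low promoter peak. *Uvrag* had 2 and 7, *Atg10* 1 and 5, *Ambra1* 2 and 3, and *Atg4a* 0 and 3. The highest intronic peak of *Uvrag*, 55522 bases from its start in the control female list and 55450 in the VEDS male list, had a fold enrichment of 9.31 (19 fragments) in the control female list and 13.4 (50 fragments) in the VEDS male list, and holds the AP-1 site shown above. That of *Ambra1*, in the first intron, had 9.1 (19 fragments) and 12.2 (46 fragments). In *Atg10*, the highest lay in intron 2 in the VEDS male list only, with a fold enrichment of 9.72 and 27 fragments, and also holds an AP-1 match. All 3 *Atg4a* peaks lay on bases masked as repeats for 65.7% to 84.7% of their length, and the *Atg4b* intronic peak of both lists for 100%.

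**Figure D5:**
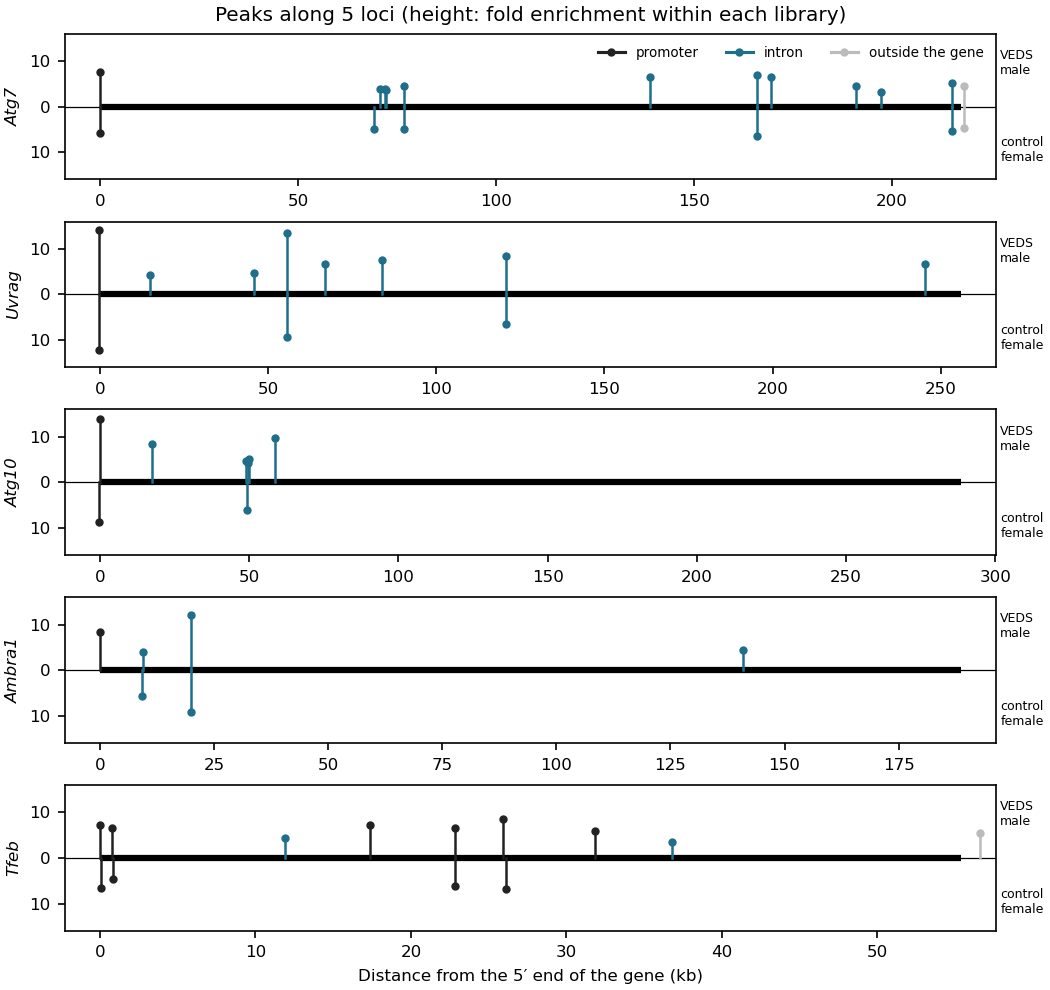
Peaks along *Atg7*, *Uvrag*, *Atg10*, *Ambra1* and *Tfeb*, placed by distance in kb from the 5′ end of the gene, with heights as fold enrichment over the local background, upwards for the VEDS male list and downwards for the control female list. Black stems are promoter peaks, blue intronic and grey outside the gene; *Atg7* has 10 intronic peaks in the VEDS male list and 4 in the control female list.

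Overlap between the long lists was counted for promoter and intronic peaks. All 38 promoter peaks of the control female list (100%) overlapped a VEDS male peak, as 98.6% did across all genes, and 38 of the 48 VEDS male promoter peaks (79.2%) overlapped a control female peak, beside 69%. Of the intronic peaks, 10 of 12 (83.3%) and 10 of 35 (28.6%) did, beside 92.6% and 36.6% for all genes. In 300 bases around their summits, an AP-1 match was present at 2 of 12 (16.7%) and 5 of 35 (14.3%), beside 17.7% and 15.6% of all intronic peaks.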

How the data were processed

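The authors mapped reads of a droplet ATAC kit to mm10, with barcode-based removal of duplicates and correction for the cut sites of Tn5, ran MACS2 in narrow-peak mode on each library and excluded blacklisted regions. The aligner and peak threshold are not given in the sources used here. Of the deposited columns, the score (10 times −log10 q), the fold enrichment (a ratio to local background), and −log10 p and −log10 q of the p-value and q-value were the authors' values. The lowest −log10 q was 1.30 to 1.32. Fragments at a summit were counted as the integer matching fold enrichment and −log10 p together under a Poisson model, for 99.3% to 99.9% of peaks within 0.01. In 500 simulated peaks it was recovered in 100%, and 200 planted motifs and 200 placed peaks were all assigned. The simulated peaks were made with the same formula, so this checks the code only. Whether the integer counts whole fragments or Tn5 cut sites was not tested. Library read totals were not used here, and absence of a peak is not absence of accessibility.

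Peaks were assigned with GENCODE vM21, and motifs were exact matches on both strands of GRCm38. Groups came from the sample labels. No test was made. All 37 genes are in the counts, with values by a rule: short-list peaks, the 4 highest and 4 lowest percentiles of each long list, missing promoter peaks, the 5 genes with most intronic peaks, and promoter E-box, CRE or AP-1 matches. An item under the rule, with 5 genes, is not reported here. Other genes and motifs were chosen after their values were seen. The members and lists were chosen with earlier results of these data known. Alternatives were stricter −log10 q, equal list length, other distances, windows and rankings, a repeat filter and leaving out libraries. Python 3.11.15, numpy 2.4.6, pandas 2.3.3, scipy 1.17.1, pysam 0.24.0 and matplotlib 3.10.9 were used.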

Additional observations from a re-analysis of the deposited data

Results flagged for a closer look

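The difference in counts between the libraries of the 2 genotypes ran in opposite directions in females and males. For promoter peaks, VEDS minus control was -34 genes in the female libraries (34 in control, 0 in VEDS) and 36 genes in the male libraries (1 in control, 37 in VEDS). For intronic peaks it was -7 genes in females (7 and 0) and 10 genes in males (0 and 10). Both drew attention because the sexes differ in sign. Each sex has 1 library per genotype, so the difference was not tested. In females the control list was the long one (21176 against 504 peaks), and in males the VEDS list was (41444 against 1236). Within a sex, genotype therefore cannot be told apart from list length. The share of all protein-coding genes with a promoter peak ran the same way, from 44.0% in control to 1.31% in VEDS females and from 1.29% to 54.5% in males, as did that with an intronic peak, from 12.6% to 0.316% and from 0.990% to 21.3%.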

How the results depend on the processing

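The counts rest on 1 long list per genotype. Leaving out each library in turn gave 0 to 37 genes with a promoter peak in either VEDS library, with 0 without the male library (replicate 2), and 1 to 34 in control, with 1 without the female library (replicate 1). With only the 504 highest peaks of every list, promoter peaks were at 0 of the 37 genes in the control female list (2.26% of all genes), 0 in the control male list (0.554%) and 1 (*Atg9a*) in the VEDS male list (2.24%), and intronic peaks at 0 in both long lists (0.101% and 0.142%). The control male promoter count was 0 at −log10 q of at least 5 (0.458%) or 10 (0.0916%). At 10, intronic peaks were at 3 genes in the control female list (4.78%) and 6 in the VEDS male list (13.2%). The stricter settings count fewer peaks, and the shares of all genes fell as well. With 504 peaks, the promoter share of the autophagy genes in the control female list was no longer above that of all genes.

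Motif counts moved with the window, as did the shares of all promoters, given in parentheses. From 1000 bases before to 200 after the start, AP-1 was at 6 genes (16.4%), the E-box at 9 (18.8%) and the CLEAR core at 2 (2.01%). Around the summit the CLEAR core was at 2 (1.99% of genes with a promoter peak in a long list). At any TSS, AP-1 was at 2 (7.87%). In the RefSeq windows, an alternative chosen after seeing the data, AP-1 was at 0 and the CRE at 2 of the 31 genes held there (5.95% and 2.03% of all genes in that table). The cause was not tested beyond the longer window. Another 54 recomputed values of these counts and of the percentile medians stayed close to the reported ones (counts within 1.5 times), and for the other motifs 18 did and 10 did not. Some of the 54 could not move, such as a count of 0 in a short list under a stricter filter. The list of 504 peaks is the VEDS female list itself, and leaving out a short list could hardly change a count. No paired analysis was possible because the counts come from no test. Libraries of the same sex pair across the genotypes, and the differences within each sex are given above as values.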

Other observations

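Some intronic and promoter features fall outside the comparisons above and are given as values. *Atg2b*, a lipid transporter, had an intronic peak in the VEDS male list that holds the CLEAR core, with a fold enrichment of 3.52 and 11 fragments. It lies 1029 bases from a start of *Atg2b*, just past the limit for a promoter peak, and 647 bases from a start of *Gskip*, and is not counted where the summit must be over 3 kb from a start. The only intronic peak of *Lamp2*, in the VEDS male list, holds an AP-1 match 8 bases from its summit and had a fold enrichment of 6.04 and 13 fragments.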
